A study of Rattus norvegicus with 23 samples.

Results

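The antioxidant and Nrf2 response was followed in the rat heart through 7 genes: Nfe2l2, Hmox1, Nqo1, Gclc, Sod1, Sod2 and Cat. The 7 genes were chosen by Ensembl identifier from the 26405 genes of the count files, and all 7 were present and passed the filter on low counts, which kept 11568 genes for testing. Their identifiers are ENSRNOG00000001548 (Nfe2l2), ENSRNOG00000014117 (Hmox1), ENSRNOG00000012772 (Nqo1), ENSRNOG00000006302 (Gclc), ENSRNOG00000002115 (Sod1), ENSRNOG00000019048 (Sod2) and ENSRNOG00000008364 (Cat). The pairing of identifier and symbol came with the list and stands in neither the count files nor the reference table.

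Nfe2l2 encodes Nrf2, a transcription factor that the adaptor protein Keap1 marks for degradation until oxidants or electrophiles modify Keap1. Stabilised Nrf2 then binds antioxidant response elements and raises transcription of genes for haem breakdown (Hmox1, haem oxygenase), quinone reduction (Nqo1) and glutathione synthesis (Gclc, the catalytic subunit of glutamate-cysteine ligase). Sod1 in the cytosol and Sod2 in mitochondria convert superoxide to hydrogen peroxide, which catalase (Cat) breaks down. In the heart, where mitochondria are abundant, these enzymes handle oxidants that respiration releases.

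The hearts came from Lewis rats, an inbred strain, 6 weeks after each animal had received a left kidney from another Lewis rat. Donor and recipient each either were healthy or had chronic kidney disease (CKD), induced by coagulating renal artery branches on both sides and then by L-NNA, which blocks nitric oxide synthase, with a high-NaCl chow until proteinuria developed. Both agents had been stopped when CKD rats entered the transplantation, and each recipient later lost its right native kidney. CD-CR had CKD in donor and recipient (n = 6), HD-CR a healthy donor and a CKD recipient (n = 5), CD-HR a CKD donor and a healthy recipient (n = 6), and HD-HR CKD in neither (n = 6). All 4 groups, HD-HR included, had the transplantation and the nephrectomy, and no rat without surgery is among them. CKD of a recipient therefore includes the earlier ablation, L-NNA and NaCl, and effects of these on the heart cannot be told apart from those of the disease. The labels give neither age nor sex.

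Polyadenylated RNA of the apex was sequenced, 1 library per rat, with 7391929 to 12444980 counts in genes per library. Over the 23 libraries a gene of the set had between 23 counts (Hmox1) and 3629 counts (Sod2). Levels are given as CPM, a gene's count scaled to library size, after TMM correction for libraries in which a few abundant genes take a large share. They are not divided by transcript length, so they are compared between groups and not between genes. Animal names began with 12 in 9 of the 11 CKD recipients and with 13 in the other 2 and in all 12 healthy recipients. No label says what that prefix stands for. Non-unique alignments per counted read had a median of 1.20 in CKD recipients and 2.31 in healthy recipients. CD-CR1, HD-HR1 and CD-CR5 lay farthest from their group means on the first 2 principal components, at distances of 38, 36.1 and 24.2. HD-HR4 and HD-CR4 came next, both at 23.7, so CD-CR5 was not set apart from them. The labelled tissue could not be checked against heart markers, because no source here pairs the other identifiers with symbols. In whole-tissue RNA, fewer cells of a type and less RNA per cell cannot be told apart.

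None of the 7 genes passed the test in any of 8 comparisons (edgeR quasi-likelihood test, Benjamini-Hochberg adjusted p under 0.05 over 11568 genes). Set against healthy recipients, CKD recipients (averaged over CKD and healthy donors) called 12.8% of all genes tested and 0 of the 7. At an unadjusted p under 0.05 it held 2 of the 7, Hmox1 and Gclc, beside 29.5% of all genes, so the share among the 7 was near that of all genes. The median log2 fold change was 0.05 over the 7 genes and -0.005 over all genes tested. DESeq2 called 1 of the 7 here (Gclc), limma-voom 1 other (Hmox1), and both called 0 in the other 7 comparisons. Among the 7, 5 had a positive and 2 a negative log2 fold change.

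**Figure D1:**
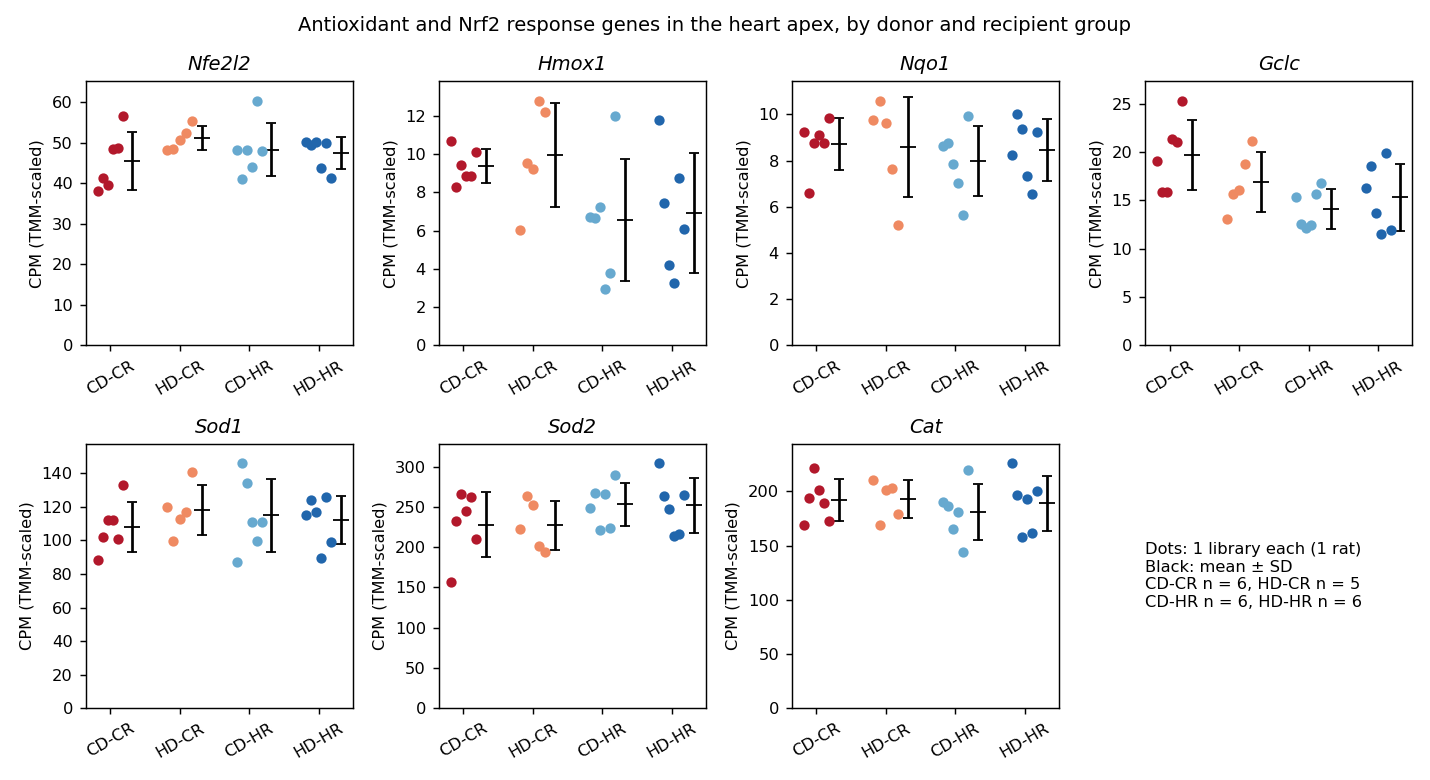
Level of each gene in CPM (vertical axis, from 0) in every library of CD-CR, HD-CR, CD-HR and HD-HR; dots are single rats and black bars the mean ± SD. Hmox1 and Gclc averaged higher in the groups with CKD recipients, and in all 7 panels the groups overlap.

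Gclc sets the rate of glutathione synthesis and came closest to the threshold. Its lowest, median and highest levels were 15.9, 20 and 25.3 CPM in CD-CR. The 5 HD-CR libraries had 13.1, 15.6, 16.1, 18.7 and 21.1 CPM. In CD-HR the lowest, median and highest were 12.1, 14.0 and 16.8 CPM, and in HD-HR 11.5, 15.0 and 19.9 CPM. CD-CR was the highest group, yet the groups overlapped: 4 of 11 CKD recipients lay above the highest healthy recipient, and 10 of 11 above the median of the healthy ones. Gclc averaged 18.5 ± 3.53 CPM in CKD recipients (SD, n = 11) and 14.7 ± 2.78 CPM in healthy recipients (n = 12). The log2 fold change was 0.31 ± 0.11 (SE), a 1.24-fold difference with a 95% interval of 1.06 to 1.45 that is not corrected for the number of genes. By edgeR p was 0.00777 and adjusted p 0.0564, with 13.8% of all genes at a smaller p.

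The Gclc difference was 1.40-fold where the donor had CKD (CD-CR against CD-HR, interval 1.13 to 1.73, edgeR adjusted p = 0.0897, 1.56% of all genes called). With a healthy donor it was 1.1-fold (HD-CR against HD-HR, interval 0.883 to 1.38, edgeR adjusted p = 0.669, 0.614% of all genes called). At an unadjusted p under 0.05 there were 1 of the 7 (Gclc) beside 17.8% of all genes with a CKD donor, and 0 of the 7 beside 18.1% with a healthy donor. These folds were not shown to differ: the donor by recipient interaction was 0.34 ± 0.22 on the log2 scale (SE) by the edgeR quasi-likelihood test. Its p was 0.128, and the adjusted p was 1 for all 7 genes, with 0.00864% of all genes called. At an unadjusted p under 0.05 the interaction held 0 of the 7 and 3.26% of all genes. The value with a healthy donor also moved: from 0.14 on the log2 scale it ran over 0.05 to 0.23 when single libraries were left out, lowest without HD-CR5 and highest without HD-HR2 or HD-HR5. With the name prefix as a covariate the log2 fold change was 0.70 with a CKD donor (edgeR adjusted p = 0.26) and 0.35 with a healthy donor (edgeR adjusted p = 0.4). Within prefix 13 it was 0.58 with a CKD donor and 0.52 with a healthy donor, each resting on 1 CKD recipient. In order of mean level the groups ran CD-CR (19.7 ± 3.59), HD-CR (16.9 ± 3.10), HD-HR (15.3 ± 3.48) and CD-HR (14.1 ± 2.02 CPM). No pair of neighbours in that order passed the test.

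The averaged Gclc difference sat at the threshold. DESeq2 put Gclc at an adjusted p of 0.0380 and limma-voom at 0.0595. By edgeR it was called without CD-CR3 (0.0428), HD-CR1 (0.0390), HD-HR2 (0.0411) or HD-HR5 (0.0346), and over all 23 single omissions the log2 fold change ran from 0.27 to 0.36. With the name prefix as a covariate Gclc was at 0.52 (edgeR adjusted p = 0.143), and within prefix 13, which holds 1 CKD recipient of each donor kind, at 0.55 (adjusted p = 0.155).

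Hmox1 frees iron, carbon monoxide and biliverdin from haem. It had 8.30, 9.15 and 10.7 CPM at the lowest, median and highest in CD-CR. The HD-CR libraries had 6.04, 9.24, 9.56, 12.2 and 12.8 CPM. CD-HR libraries spanned 2.93 to 12 CPM around a median of 6.67 CPM, and HD-HR libraries 3.27 to 11.8 CPM around 6.78 CPM. The low values lay in healthy recipients, of which 4 of 12 were below every CKD recipient, while the highest of both kinds were alike. Hmox1 averaged 9.65 ± 1.85 CPM in CKD recipients (SD, n = 11) and 6.75 ± 3.02 CPM in healthy recipients (n = 12). The log2 fold change was 0.52 ± 0.20 (SE), or 1.43-fold with an interval of 1.07 to 1.91. By edgeR p was 0.0169 and adjusted p 0.0887, with 19.1% of all genes at a smaller p. The fitted fold was 1.43 with a CKD donor (interval 0.958 to 2.14) and also 1.43 with a healthy donor (interval 0.946 to 2.16). Within prefix 13, with 1 CKD recipient of each donor kind, the log2 fold change was 0.45 with a CKD donor and 0.86 with a healthy donor.

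Hmox1 was the most variable gene of the set. Its libraries varied around their group means with an SD of 0.53 on the log2 scale, larger than in 87.4% of all genes tested, against 0.17 to 0.28 for the other 6 genes. The median of 81 Hmox1 counts gives a Poisson coefficient of variation of 11.1%, and the fitted biological one was 32.2%. The lowest count was 23, where counting error is larger, and the part of counting error in this spread was not tested. The SD of the Hmox1 level was 0.887 CPM in CD-CR and 2.71 to 3.19 CPM in the other groups, a difference in spread that was not tested. Without CD-HR6 or without HD-HR1, the healthy recipients with the highest Hmox1, the edgeR adjusted p was 0.0318 and 0.0355. It was 0.0410 by limma-voom and 0.0566 by DESeq2. With non-unique alignments per counted read as a covariate the log2 fold change was 0.38 (adjusted p = 0.273), and with the name prefix 0.64 (adjusted p = 0.340).

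**Figure D2:**
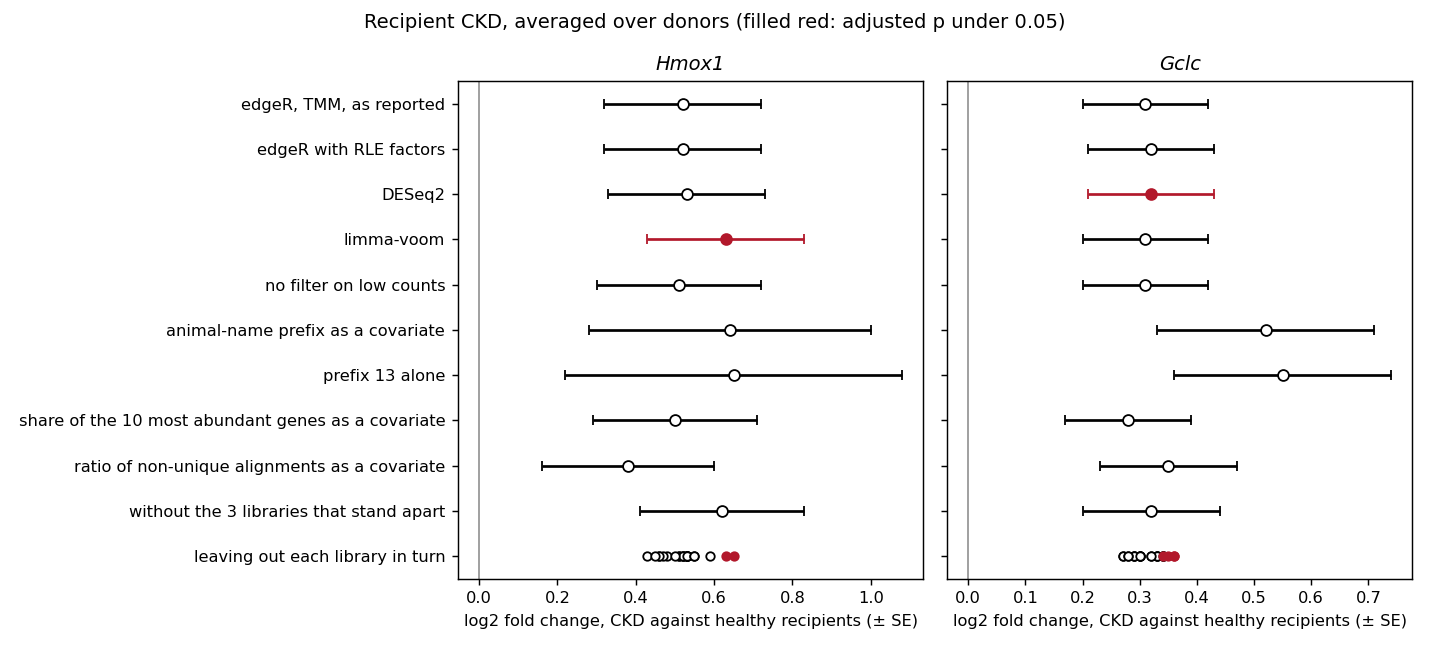
Log2 fold change of Hmox1 and Gclc between CKD and healthy recipients (horizontal axis, ± SE) under different ways of fitting the data. The bottom row holds the fits that leave out 1 library, and the fit with the replicate number as a block is not drawn. Filled red points had an adjusted p under 0.05. Every point lies above 0, from 0.38 to 0.65 for Hmox1 and from 0.27 to 0.55 for Gclc, and most do not pass.

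Nqo1, a quinone reductase widely used as a readout of Nrf2 activity, had 6.58, 8.93 and 9.86 CPM at the lowest, median and highest in CD-CR. The HD-CR libraries had 5.23, 7.66, 9.61, 9.77 and 10.6 CPM. The CD-HR values were 5.63, 8.25 and 9.92 CPM, those of HD-HR 6.56, 8.74 and 10 CPM. The ranges of the 4 groups nearly coincided. Nqo1 was 1.05-fold in CKD against healthy recipients, with an interval of 0.894 to 1.24 (edgeR adjusted p = 0.711). The sign of this small difference turned with the name prefix as a covariate (log2 -0.24) and within prefix 13 (log2 -0.25), neither of which passed.

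Nfe2l2 itself, the regulator, had 38.1, 44.8 and 56.7 CPM at the lowest, median and highest in CD-CR. HD-CR stood at 48.2, 48.5, 50.7, 52.5 and 55.4 CPM. CD-HR ran over 41.1, 48.1 and 60.4 CPM and HD-HR over 41.3, 49.7 and 50.3 CPM. Means were 48.0 ± 6.12 CPM in CKD recipients (SD, n = 11) and 47.9 ± 5.19 CPM in healthy recipients (n = 12), a fold of 1.01 with an interval of 0.904 to 1.12 (edgeR adjusted p = 0.954). Nrf2 is controlled largely through the stability of the protein, which these transcript counts do not measure.

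**Figure D3:**
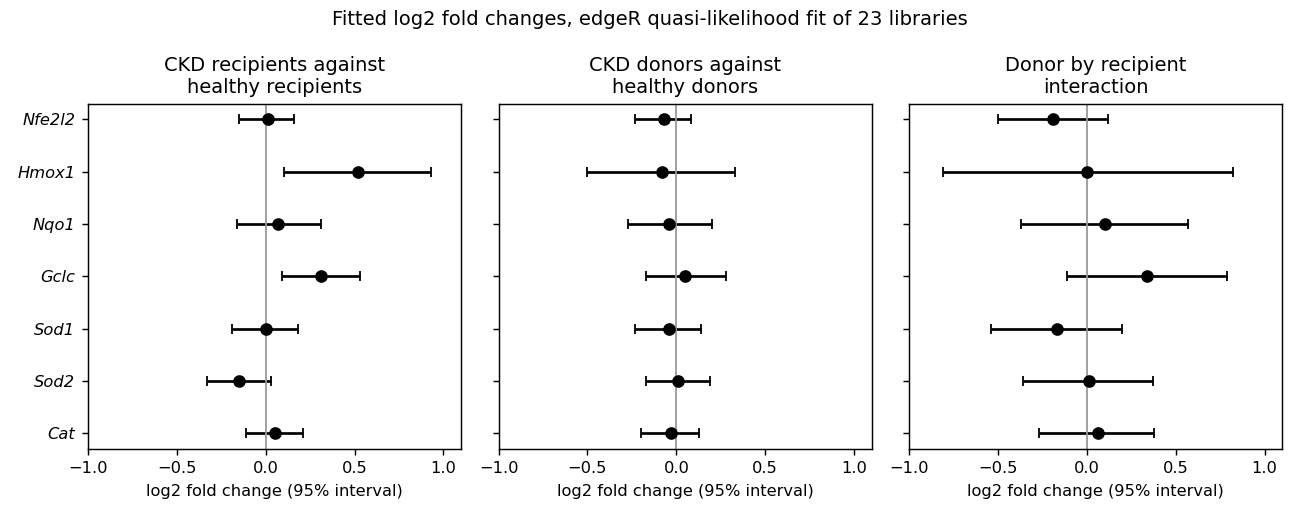
Fitted log2 fold change of each gene (points) with its 95% interval (bars, not corrected for multiple testing) for CKD against healthy recipients, CKD against healthy donors and the donor by recipient interaction. The intervals of Hmox1 (0.10 to 0.93) and Gclc (0.09 to 0.53) for the recipient comparison lie above 0, and all others span 0.

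Of the enzymes that remove superoxide and hydrogen peroxide, Sod2 had the largest fitted recipient difference. In CD-CR its lowest, median and highest levels were 157, 238 and 266 CPM, and in HD-CR the values were 194, 201, 222, 252 and 264 CPM. In CD-HR they were 221, 257 and 289 CPM and in HD-HR 214, 255 and 304 CPM. The lowest values lay in CKD recipients, 4 of 11 of which were below every healthy recipient. Sod2 averaged 228 ± 34.7 CPM in CKD recipients and 252 ± 29.1 CPM in healthy recipients (SD, n = 11 and n = 12). The fold was 0.902 with an interval of 0.795 to 1.02 (edgeR adjusted p = 0.269), and without CD-CR1, the lowest library, the log2 fold change was -0.09 (adjusted p = 0.469) in place of -0.15. Without CD-CR1, HD-HR1 and CD-CR5 together it was -0.08 (edgeR adjusted p = 0.565), and with non-unique alignments per counted read as a covariate -0.26 (edgeR adjusted p = 0.0804).

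Sod1 and Cat showed narrower differences. Sod1 ran over 88.4, 107 and 133 CPM (lowest, median, highest) in CD-CR, over 99.5, 117 and 141 CPM in HD-CR, over 87.3, 111 and 146 CPM in CD-HR and over 89.4, 116 and 126 CPM in HD-HR. Its fold in CKD against healthy recipients was 0.998 with an interval of 0.878 to 1.13 (edgeR adjusted p = 0.988). Cat ran over 169, 192 and 222 CPM in CD-CR, over 169, 201 and 211 CPM in HD-CR, over 144, 184 and 220 CPM in CD-HR and over 158, 195 and 226 CPM in HD-HR. Its fold was 1.04 with an interval of 0.928 to 1.16 (edgeR adjusted p = 0.695), and its sign turned in the fits with the name prefix (log2 -0.01) or the ratio of non-unique alignments (log2 -0.06). For both genes the groups overlapped over most of their ranges. For Cat, as for Hmox1, 4 of 12 healthy recipients lay below every CKD recipient. Above every healthy recipient lay 0 of 11 CKD recipients for Cat and 2 of 11 for Hmox1.

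Because Nrf2 acts through a short DNA element, RefSeq promoter windows were searched for the core letters TGACNNNGC on both strands. A window (build GRCr8) runs from 250 bases before to 50 after a start of the gene. Windows were found for 6 of the 7 genes, Hmox1 being the one without. Only the first listed window of each gene was searched, so any further starts were not. In Nfe2l2, Gclc and Sod1 the 250 bases overlap the annotated span of the gene, so the start used there is not its outermost one. The letters were present in 2 of the 6, and in 12.1% of all 33469 windows of that length. In Sod2 they lay on the opposite strand between bases -35 and -27 from the start, and in Nfe2l2 between bases 38 and 46 after the start. Shown are the 250 bases before the start, 5′ to 3′ on the gene's strand, for Sod2, which holds a match there, and for Cat and the Nrf2 target Nqo1 as windows without one, with the matching letters in capitals. They are chr1:50050169-50050418 (minus strand, Sod2), chr3:110329527-110329776 (minus strand, Cat) and chr19:52220268-52220517 (minus strand, Nqo1).
Sod2: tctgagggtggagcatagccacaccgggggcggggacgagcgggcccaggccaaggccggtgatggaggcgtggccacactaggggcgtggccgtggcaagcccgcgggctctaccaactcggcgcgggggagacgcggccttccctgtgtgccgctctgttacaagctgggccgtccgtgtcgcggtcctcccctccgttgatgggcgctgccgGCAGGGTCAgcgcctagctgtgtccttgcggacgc
Cat: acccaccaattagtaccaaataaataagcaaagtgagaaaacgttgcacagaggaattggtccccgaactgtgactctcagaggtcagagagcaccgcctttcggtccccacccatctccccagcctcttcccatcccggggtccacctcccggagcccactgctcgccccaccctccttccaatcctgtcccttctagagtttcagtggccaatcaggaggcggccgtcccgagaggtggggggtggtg
Nqo1: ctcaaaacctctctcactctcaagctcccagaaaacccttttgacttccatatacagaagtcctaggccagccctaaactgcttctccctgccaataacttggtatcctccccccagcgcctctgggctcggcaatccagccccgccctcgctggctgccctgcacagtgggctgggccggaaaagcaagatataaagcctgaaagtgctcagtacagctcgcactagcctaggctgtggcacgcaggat

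Of these 3 stretches, the one of Sod2 holds the letters once, and those of Cat and Nqo1 do not. GC made up 71.6% of the 250 bases in Sod2, 58.8% in Cat and 56.4% in Nqo1, and 74.8% in Gclc, 69.2% in Nfe2l2 and 63.2% in Sod1. Elements farther from the start than these windows were not searched.

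CKD of the donor kidney moved none of the 7 genes past the threshold. Averaged over recipients, the edgeR test called 0% of all genes and 0 of the 7, and 12.8% of all genes but 0 of the 7 had an unadjusted p under 0.05. DESeq2 called 226 and limma-voom 0 of all genes, and neither called any of the 7. Log2 fold changes of the 7 lay between -0.08 (Hmox1) and 0.05 (Gclc), with a median of -0.04 against 0.011 over all genes. The widest interval was that of Hmox1, 0.707-fold to 1.26-fold. Hmox1 averaged 7.97 ± 2.67 CPM with CKD donors (SD, n = 12) and 8.32 ± 3.22 CPM with healthy donors (n = 11), and Gclc 16.9 ± 4.03 CPM with CKD donors and 16 ± 3.26 CPM with healthy donors.

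In healthy recipients (CD-HR against HD-HR) the edgeR test called 0% of all genes, and the 7 folds lay between 0.922 (Gclc, interval 0.744 to 1.14) and 1.03 (Sod1, interval 0.863 to 1.23). At an unadjusted p under 0.05 there were 7.60% of all genes and 0 of the 7, and DESeq2 and limma-voom called 7 and 0 of all genes and 0 of the 7. In CKD recipients (CD-CR against HD-CR) 0.0259% of all genes and 0 of the 7 were called, and 8.31% of all genes but 0 of the 7 had an unadjusted p under 0.05. The 7 folds there ran from 0.890 for Nfe2l2 (interval 0.763 to 1.04, edgeR adjusted p = 0.695) to 1.17 for Gclc (interval 0.936 to 1.46, edgeR adjusted p = 0.715). Gclc thus had the highest and Nfe2l2 the lowest fitted donor difference in CKD recipients.

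With CKD in both donor and recipient against CKD in neither (CD-CR against HD-HR), 3.65% of all genes were called and 0 of the 7, and at an unadjusted p under 0.05 there were 18.6% of all genes and 1 of the 7, Gclc. Gclc averaged 19.7 ± 3.59 CPM in CD-CR and 15.3 ± 3.48 CPM in HD-HR (SD, n = 6 each), 1.29-fold with an interval of 1.04 to 1.59 (edgeR adjusted p = 0.175). Hmox1 averaged 9.38 ± 0.887 CPM in CD-CR and 6.94 ± 3.13 CPM in HD-HR, 1.35-fold with an interval of 0.907 to 2.01 (edgeR adjusted p = 0.417). The other 5 folds lay between 0.908 (Sod2) and 1.03 (Nqo1). This comparison shares its libraries with those above and adds no independent animals.

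How the genes varied together among rats of 1 group was measured on log2 CPM after subtracting group means, over 23 libraries and 21 pairs of genes. Correlations between -0.37 (Nfe2l2 and Cat) and 0.70 (Nfe2l2 and Gclc) were found, and 2 of 21 pairs had an adjusted p under 0.05 by Pearson's r in permutations of rats within groups. Nfe2l2 and Gclc, regulator and target, rose and fell together, with Pearson's r = 0.70 (permutation p = 0.00013, adjusted p = 0.00273) and Spearman's rho = 0.70 (permutation p = 0.00029, adjusted p = 0.00609). Without CD-CR1 and CD-HR5, the libraries farthest from the median of Nfe2l2, r was 0.78. Within prefix 12 (9 libraries) it was 0.81, and within prefix 13 (12 libraries of groups with more than 1 there) 0.61. The highest Nfe2l2 and the highest Gclc of a group were in the same rat in CD-CR (CD-CR6, 56.7 and 25.3 CPM) and in HD-CR (HD-CR5, 55.4 and 21.1 CPM). They were in different rats in CD-HR (CD-HR5 for Nfe2l2, CD-HR6 for Gclc) and in HD-HR (HD-HR3 for Nfe2l2, HD-HR5 for Gclc).

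Few genes followed Gclc as closely as Nfe2l2 did. Only 11 of 11567 other genes (0.0951%), Nfe2l2 among them, had an r with Gclc at least as high, and 62 (0.536%), Gclc among them, had one with Nfe2l2. Nfe2l2 levels were also related to the share of counts in the 10 most abundant genes (r = 0.54, rho = 0.50, permutation p = 0.0142, adjusted p = 0.146 over 21 such relations). Within prefixes 12 and 13 that r was 0.39 and 0.67, and it was 0.46 without the 2 libraries farthest out. With that share removed, r between Nfe2l2 and Gclc was 0.68.

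**Figure D4:**
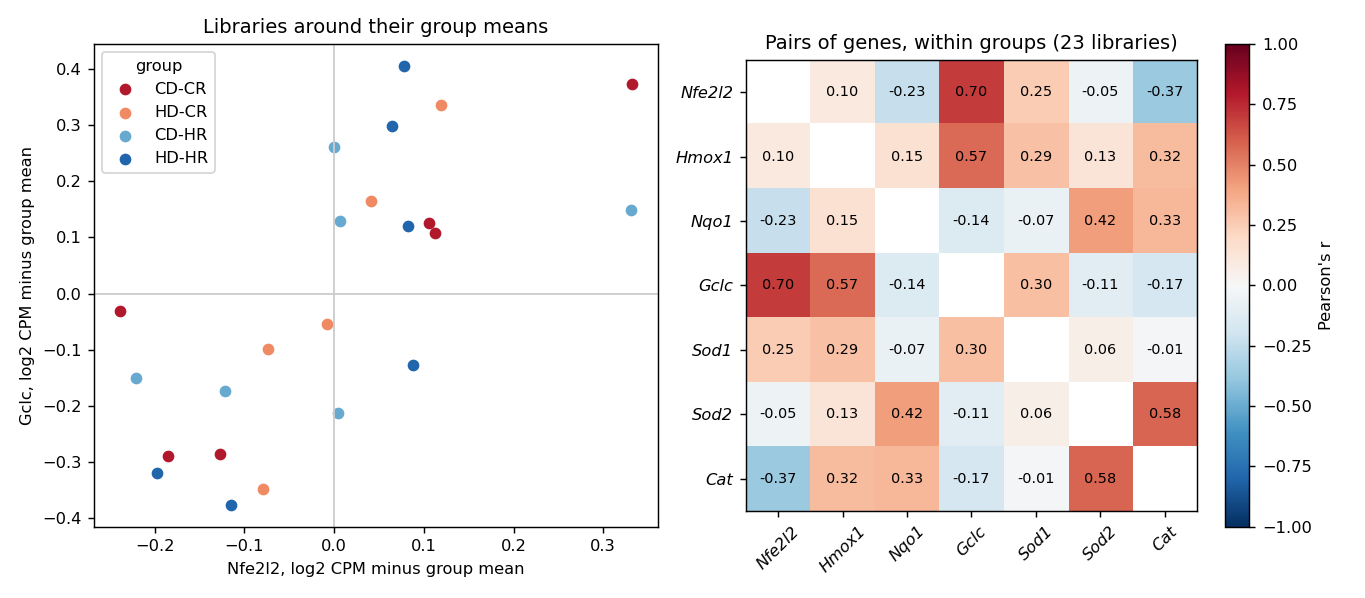
Left, Gclc against Nfe2l2 as log2 CPM minus the group mean, 1 dot per library coloured by group; right, Pearson's r for each pair of the 7 genes over 23 libraries (white 0, red positive, blue negative). The strongest pair is Nfe2l2 and Gclc at 0.70, followed by Sod2 and Cat at 0.58 and Hmox1 and Gclc at 0.57.

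Hmox1 and Gclc, both Nrf2 targets, had r = 0.57 (rho = 0.60, permutation p = 0.00764, adjusted p = 0.0535), which missed the threshold. It was 0.63 within prefix 12, 0.58 within prefix 13 and 0.49 without CD-HR4 and HD-HR4. An r at least as high was reached by 1.24% of all other genes with Gclc and by 0.865% with Hmox1. Hmox1 and Nfe2l2 had r = 0.10 (adjusted p = 0.804). Nqo1 was not shown to follow the other targets or Nfe2l2 within groups, with r = 0.15 to Hmox1, -0.14 to Gclc and -0.23 to Nfe2l2, none of which passed. Within prefixes 12 and 13 these r differed in sign: -0.14 and 0.44 to Hmox1, 0.24 and -0.03 to Gclc, and 0.23 and -0.42 to Nfe2l2.

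Sod2 and Cat, whose products act in succession on superoxide and hydrogen peroxide, were the other pair past the threshold, at its edge and by Pearson's r alone. Their r was 0.58 (permutation p = 0.00475, adjusted p = 0.0499). Their rho of 0.50 did not pass (permutation p = 0.0247, adjusted p = 0.173). The r was 0.43 within prefix 12, 0.76 within prefix 13 and 0.54 without CD-CR1 and HD-CR5. A correlation this high was common, since 2.24% of all other genes reached it with Cat and 4.53% with Sod2. Non-unique alignments per counted read were related to both, with r = -0.58 for Cat and -0.50 for Sod2 (adjusted p = 0.146 each), and with that measure removed the pair had r = 0.40. With total count removed in its place the pair had r = 0.46.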

How the data were processed

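RNA-seq of the heart apex was available for 23 Lewis rats, 1 library each. Per the labels' protocols, RNA was extracted with Trizol, selected on poly(A) beads and made into directional libraries. The deposited values are raw whole-number read counts per Ensembl gene. The submitters' processing notes name build Rnor_5.0 and the tools STAR (2.4.2a), Picard and HTSeq (0.6.1p1). Annotation release, strand setting and duplicate handling are not stated there, and counts of genes that overlap another may hold its reads. The 5 summary lines per file were left out; reads in no feature came to 10.6 to 21.5%.

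Groups came from the sample titles. Genes were filtered with filterByExpr, scaled by TMM and tested in 1 fit of all libraries with edgeR 4.0.16 (glmQLFit, robust; glmQLFTest) in R 4.3.3. P-values were adjusted by Benjamini-Hochberg over all 11568 genes, and every adjusted p for a fold change is from this test unless another tool is named. The SE is the log2 fold change divided by the square root of F. Intervals are 95% from that SE and the fit's degrees of freedom. Correlations used log2 CPM (prior count 2) minus group means and 100000 permutations within groups, two-sided, adjusted over 21 pairs. No 2 libraries of a group agreed within sampling noise (lowest chi-square per degree of freedom 8.38). No molecular identifiers are named, so Poisson values cover counting error only. The code was tested on simulated counts.

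The 7 genes and all lists were chosen with earlier results of these data known. Every one of the 7 is described whatever its test. A list of 52 further genes of the pathway and 31 cell type markers could not be matched, because 0 rows of the reference table hold an Ensembl identifier. They were not analysed here, and for the same reason no gene of like pattern is named.

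Alternatives were RLE scaling, DESeq2 1.42.0, limma-voom (limma 3.58.1), no filter, the replicate number as a block, the name prefix as a covariate or split, library measures as covariates, 2 groups alone and each library left out. Leaving out CD-CR1, CD-CR5 and HD-HR1 together was added after seeing the data.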

Additional observations from a re-analysis of the deposited data

Results flagged for a closer look

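In a test of the gap between the highest or lowest library and its nearest neighbour, run on 28 combinations of gene and group, 2 libraries stood apart, where chance flags about 1 in 20. Nfe2l2 had 60.4 CPM in CD-HR5, against 41.1 to 48.2 CPM in the other CD-HR libraries. CD-HR5 also had the lowest total count (7391929), the highest share of counts in its 10 most abundant genes (68.6%) and the most non-unique alignments per counted read (10.7), and their part in its Nfe2l2 level was not tested. Nqo1 had 6.58 CPM in CD-CR2, from 69 counts, against 8.76 to 9.86 CPM in the other CD-CR libraries. The donor by recipient interaction passed for 0 of the 7 genes.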

How the results depend on the processing

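The limits of these data lie in the confounding of recipient CKD with the name prefix, in 5 or 6 rats per group and, for Hmox1 and Nqo1, in counts down to 23 and 34. None of the 7 genes passed in the main fit, so none could lose a call. Of 1491 recomputed log2 fold changes of the 7 genes, 9 rose above the threshold, 99 changed sign without 1 library and 62 did so under other settings. The rest kept direction and call. All 9 were of Gclc or Hmox1 in the recipient average. Among the members, the number called there was 1 (Gclc) with DESeq2, 1 (Hmox1) with limma-voom, 1 (Gclc) with the replicate block and 0 to 1 without each library. Replicate numbers did not pair the libraries: same-numbered libraries of different groups correlated between -0.32 and 0.36 (12 of 33 pairs above 0.1), and 6 of 23 libraries correlated best with their own number. With that block Gclc was at 0.32 (adjusted p = 0.0478) and Hmox1 at 0.61 (adjusted p = 0.0709).

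Counts of called genes over all genes moved more, and the cause was not tested. The top-10 share is the percent of a library's counts in its 10 most abundant genes, as a covariate. The recipient average gave 1483, but 6 with the prefix covariate, 882 without the 3 libraries farthest from their group means and 860 to 1742 without each library. Its count also fell within prefix 13, where each group of CKD recipients holds 1 library. Recipient CKD with healthy donors gave 71, but 259 with DESeq2, 44 with limma-voom, 3 with the prefix covariate, 10 within prefix 13, 47 with the top-10 share, 306 in 2 groups alone and 5 to 89 without each library. Recipient CKD with CKD donors gave 181, but 449 with DESeq2, 0 with the prefix covariate, 0 within prefix 13, 334 with the top-10 share, 109 with the ratio of non-unique alignments, 32 in 2 groups alone, 55 without the 3 libraries and 48 to 359 without each library. The donor average gave 0, but 226 with DESeq2, 1 with no filter, 16 with the top-10 share and 0 to 46 without each library. Donor CKD in healthy recipients gave 0, but 7 with DESeq2 and 0 to 1 without each library. Donor CKD in CKD recipients gave 3, but 36 with DESeq2, 0 within prefix 13, 5 with the top-10 share, 7 in 2 groups alone, 7 without the 3 libraries and 2 to 18 without each library. Both against neither gave 422, but 651 with DESeq2, 0 with the prefix covariate, 0 within prefix 13, 170 without the 3 libraries and 227 to 514 without each library. The interaction gave 1, but 2 with DESeq2, 0 within prefix 13, 0 with the replicate block, 2 with the top-10 share, 2 without the 3 libraries and 0 to 2 without each library.

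Within prefix 13 both groups with CKD recipients hold 1 library, CD-CR5 and HD-CR5, so donor CKD in CKD recipients compares those 2 libraries there, and each recipient comparison by donor has an arm of 1. Such a lone library is assumed to vary like those of the other groups, and its sign or call count has no replicate check. The sign of a log2 fold change turned only where the main fit had a value of at most 0.22 in size, none of which passed. After turning, values reached -0.65 (Nqo1 within prefix 13, recipient CKD with healthy donors). With RLE factors the sign changed in the recipient average for Sod1 (0.0034) and in the interaction for Hmox1 (-0.01) and Sod2 (-0.01). With DESeq2 it changed in the recipient average for Sod1 (0.0032) and in the interaction for Hmox1 (-0.02) and Sod2 (-0.01). With limma-voom it changed in the recipient average for Sod1 (0.0031) and in the interaction for Sod2 (-0.01). With the replicate block it changed in the recipient average for Sod1 (0.01) and in the interaction for Hmox1 (-0.08). With the prefix as a covariate it changed in the recipient average for Nqo1 (-0.24), Sod1 (0.09) and Cat (-0.01), in recipient CKD with healthy donors for Nqo1 (-0.29) and Cat (-0.04), in recipient CKD with CKD donors for Nfe2l2 (0.02), Nqo1 (-0.19) and Sod1 (0.01) and in both against neither for Nfe2l2 (0.05), Nqo1 (-0.27), Sod1 (0.05) and Cat (-0.05). Within prefix 13 it changed in the recipient average for Nqo1 (-0.25) and Sod1 (0.11), in recipient CKD with healthy donors for Nqo1 (-0.65) and Cat (-0.03), in recipient CKD with CKD donors for Nfe2l2 (0.02) and Sod2 (0.06), in the donor average for Nqo1 (0.32), Gclc (-0.07) and Cat (4e-04), in donor CKD in CKD recipients for Gclc (-0.04) and Cat (0.05), in both against neither for Nfe2l2 (0.06) and Sod2 (0.08) and in the interaction for Hmox1 (-0.41). With the top-10 share it changed in the recipient average for Nfe2l2 (-0.02). With the ratio of non-unique alignments it changed in the recipient average for Nqo1 (-0.02) and Cat (-0.06), in recipient CKD with healthy donors for Nqo1 (-0.06) and Cat (-0.07), in recipient CKD with CKD donors for Cat (-0.04), in donor CKD in healthy recipients for Nfe2l2 (-0.0044), in donor CKD in CKD recipients for Cat (8e-04), in both against neither for Nqo1 (-0.03) and Cat (-0.07) and in the interaction for Hmox1 (-0.0011) and Sod2 (-0.04). Without CD-CR1, CD-CR5 and HD-HR1 it changed in the recipient average for Sod1 (0.05), in recipient CKD with CKD donors for Sod1 (2e-04), in the donor average for Hmox1 (0.0022), Sod1 (0.0012) and Cat (0.01), in donor CKD in healthy recipients for Hmox1 (0.13), in donor CKD in CKD recipients for Nqo1 (-0.02) and Cat (0.03), in both against neither for Sod1 (0.05) and in the interaction for Hmox1 (-0.26) and Sod2 (-0.01). Within prefix 12 it changed in donor CKD in CKD recipients for Hmox1 (0.0039), Nqo1 (-0.13) and Sod2 (-0.09). Without each library in turn, it turned in the recipient average for Nfe2l2 (-0.03 to 0.05) and Sod1 (-0.04 to 0.04). The range crossed 0 in recipient CKD with healthy donors for Nqo1 (-0.05 to 0.15) and Cat (-0.02 to 0.08). The range crossed 0 in the donor average for Hmox1 (-0.21 to 0.02), Nqo1 (-0.1 to 0.0046) and Sod2 (-0.02 to 0.05). The range crossed 0 in donor CKD in healthy recipients for Nfe2l2 (-0.05 to 0.07), Hmox1 (-0.35 to 0.13), Sod1 (-0.04 to 0.11) and Sod2 (-0.04 to 0.07). The range crossed 0 in donor CKD in CKD recipients for Hmox1 (-0.22 to 0.03), Nqo1 (-0.12 to 0.09), Sod2 (-0.04 to 0.09) and Cat (-0.06 to 0.03). The range crossed 0 in both against neither for Nqo1 (-0.02 to 0.11), Sod1 (-0.11 to 0.02) and Cat (-0.03 to 0.07). The range crossed 0 in the interaction for Hmox1 (-0.21 to 0.26), Nqo1 (-0.03 to 0.17), Sod2 (-0.06 to 0.08) and Cat (-0.0032 to 0.12). Of the 21 pairs, 2 were correlated past the threshold, and 2 also with RLE factors or with a prior count of 0.5.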

Other observations

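Within groups, none of 21 relations between the 7 genes and 3 library measures (non-unique alignments per counted read, top-10 share of counts, total count) passed, the smallest adjusted permutation p being 0.146. The largest were those of Cat with non-unique alignments (r = -0.58, rho = -0.57, permutation p = 0.00932), of Nfe2l2 with the top-10 share (r = 0.54), and of Sod2 with non-unique alignments (r = -0.50) and with total count (r = 0.50). For Cat the r with non-unique alignments was -0.46 within prefix 12, -0.63 within prefix 13 and -0.53 without the 2 libraries farthest out. For Nqo1 the r with non-unique alignments was -0.36 over all libraries, but 0.69 within prefix 12 and -0.84 within prefix 13.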
